A study of Mus musculus with 12 samples.

Results

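Genes for potassium, sodium and calcium channels were followed across 12 arrays of sorted mouse lung fibroblasts. They are the genes on the array whose symbol begins with Kcn, with Scn and a number, or with Cacn, leaving out Kcnj8 and Scn3a. Members were selected on their measured signal: a gene was kept where its log2 signal lay above 5.1, the median of all values, on 2 or more of the 12 arrays, and the probe set with the highest mean stood for the gene. Of 108 genes so named, 43 passed and 65 did not, within 11073 genes of the 17097 on the array that passed the same filter. Just inside the filter, by the second-highest array, were Kcnt1 at 5.26, Kcnd3 at 5.33 and Cacng7 at 5.36. Just outside were Cacna2d4 at 5.08, Scn1a at 4.95 and Kcna7 at 4.90.

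All animals carried the PDGFRa-GFP reporter, a GFP signal that reads out the gene for platelet-derived growth factor receptor alpha, and dispase-digested lungs were sorted into GFP bright and GFP dim cells. The surgeries were SHAM (surgical trauma without septal regeneration), PNX (partial pneumonectomy, followed by compensatory regrowth) and PNX-dnFGFR (pneumonectomy in mice expressing a dominant-negative FGFR2, described as inhibiting myofibroblast activation and regrowth). Lungs were taken 5 days after surgery, RNA of 2000 cells was amplified over 25 PCR cycles, and each of the 6 groups had 2 arrays. The sources used here do not give the promoter and cell type that drive dnFGFR, the age or strain of the mice, or whether a replicate is a pool of animals. Bright and dim arrays may also share animals, so p-values measure the spread between these samples.

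Pore-forming alpha subunits of voltage-gated potassium channels open on depolarization and return the membrane towards rest, and auxiliary subunits set their gating and surface number. Inward rectifiers and tandem-pore potassium channels hold the resting potential, while calcium alpha1 subunits admit calcium, helped by alpha2delta, beta and gamma subunits. In fibroblasts, membrane potential and calcium entry are known to bear on proliferation, contraction and differentiation into myofibroblasts.

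The 43 members comprised 11 of 28 named voltage-gated potassium alpha subunits, 4 of 14 inward rectifiers, 5 of 9 tandem-pore potassium channels, 4 of 7 potassium alpha subunits gated by calcium or sodium, and 5 of 15 potassium auxiliary subunits or regulators. They also comprised 3 of 7 sodium alpha subunits, 1 of 3 sodium beta subunits, 4 of 9 calcium alpha1 subunits, 1 of 4 alpha2delta, 1 of 2 calcium beta and 3 of 7 calcium gamma subunits. The last, Kcnq1ot1, is a long non-coding RNA rather than a channel. On all 12 arrays 20 members lay above the filter. Another 5 (Cacna1h, Cacng7, Kcnip1, Kcna1 and Kcng4) passed on bright arrays only, and 4 (Kcnk13, Kcnk5, Kcna3 and Kcnh2) on dim arrays only. These 9 entered through the subset where they are high and so had to differ between subsets. Their bright minus dim differences are given as descriptions, with no test, beside the value with low signals set to the filter value. Counts of calls over all 43 members include them.

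Across all genes, replicates correlated at r = 0.953 to 0.976 and array medians lay between 5.06 and 5.13 log2. Against the label, bright arrays carried less Pdgfra than dim arrays, at 4.84 to 5.54 log2 against 6.66 to 7.13 (-1.75 ± 0.10 SE, limma adjusted p = 9.92e-07). Subsets are therefore named by their labels. Were the labels exchanged, every direction between bright and dim given here would turn, and these files do not settle which holds. The 6 fibroblast markers averaged 9.48 to 9.63 log2 on bright and 8.98 to 9.35 on dim arrays, but went opposite ways: 4 were higher in bright, among them Dcn (5.05) and Col1a2 (1.05), and 2 lower, Tcf21 (-2.71) and Pdgfra. In pools of sorted cells, fewer cells of a type and less RNA per cell cannot be told apart.

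Promoters are shown for 5 of the 8 members that differed between PNX-dnFGFR and SHAM in bright cells because the comparison of surgeries turns on them. Each line gives the 250 bases before the annotated start, 5′ to 3′ on the gene's strand, from RefSeq on GRCm38.p6. Capitals mark matches on either strand to GGGCGG (GC box), GGAATG (TEAD) or CAGCTG (E-box).
Kcnip1, minus strand, chr11:33993194-33993443: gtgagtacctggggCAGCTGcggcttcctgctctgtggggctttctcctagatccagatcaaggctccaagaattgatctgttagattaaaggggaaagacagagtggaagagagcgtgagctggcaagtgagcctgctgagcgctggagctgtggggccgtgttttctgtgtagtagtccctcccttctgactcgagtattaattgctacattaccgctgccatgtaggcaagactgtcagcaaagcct
Kcns3, minus strand, chr12:11150843-11151092: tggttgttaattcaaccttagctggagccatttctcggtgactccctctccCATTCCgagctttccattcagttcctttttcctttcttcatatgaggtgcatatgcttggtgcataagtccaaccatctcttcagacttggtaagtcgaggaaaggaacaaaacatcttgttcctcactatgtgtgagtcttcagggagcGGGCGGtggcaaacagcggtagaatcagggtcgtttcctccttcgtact
Kcna2, plus strand, chr3:107101317-107101566: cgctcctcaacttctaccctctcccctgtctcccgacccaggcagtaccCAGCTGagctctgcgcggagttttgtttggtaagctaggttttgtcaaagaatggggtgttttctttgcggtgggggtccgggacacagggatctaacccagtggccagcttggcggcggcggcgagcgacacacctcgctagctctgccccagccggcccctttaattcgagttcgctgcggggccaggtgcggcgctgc
Scn7a, minus strand, chr2:66784911-66785160: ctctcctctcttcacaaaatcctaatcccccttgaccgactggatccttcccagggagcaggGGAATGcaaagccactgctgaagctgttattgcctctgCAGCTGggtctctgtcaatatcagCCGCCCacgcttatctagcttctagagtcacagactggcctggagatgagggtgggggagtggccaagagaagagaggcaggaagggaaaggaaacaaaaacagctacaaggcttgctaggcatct
Cacna1c, minus strand, chr6:119196410-119196659: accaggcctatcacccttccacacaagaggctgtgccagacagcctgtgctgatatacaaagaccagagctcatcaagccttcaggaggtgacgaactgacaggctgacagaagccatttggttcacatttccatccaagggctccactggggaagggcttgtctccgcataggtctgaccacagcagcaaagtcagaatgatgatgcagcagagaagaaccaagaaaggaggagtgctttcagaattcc
Where RefSeq lists several starts, the first was used, and Kcnd1, Cacna1h and Cacna1a were not matched.

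Across the 33 matched members, searched on both strands, the GC box was in 14 promoters (42.4%, against 32.9% of all 27025 promoters of this length) and the E-box in 9 (27.3% against 12.8%). TEAD letters were in 6 (18.2% against 12.6%), CCAAT in 9 (27.3% against 34.5%), TATAAA in 2 (6.1% against 13%) and TGANTCA, the AP-1 letters, in 2 (6.1% against 6.9%). Of the promoters printed, those of Kcnip1, Kcna2 and Scn7a hold the E-box, and those of Kcns3 and Scn7a hold the GC box and the TEAD letters. The Cacna1c window held none of the 6 motifs. A match describes letters in a window and is not evidence of binding.

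Between the subsets, the channel genes separated in both directions. Averaged over the surgeries, 11 members were higher and 13 lower in arrays labelled bright (limma, Benjamini-Hochberg adjusted p below 0.05), against 28.5% of all genes tested higher and 19.3% lower. At 55.8%, the members' share lies near the sum of those backgrounds and is no result about channels as a group. Of the 34 members above the filter in both subsets, 6 were higher and 9 lower, 44.1% of them. The other 5 higher and 4 lower are the 9 members above the filter in 1 subset only. These had to differ, so their calls are no test. The median difference was -0.09 log2 over the members and 0.05 over all genes. The members are described one by one, by labelled subset.

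**Figure D1:**
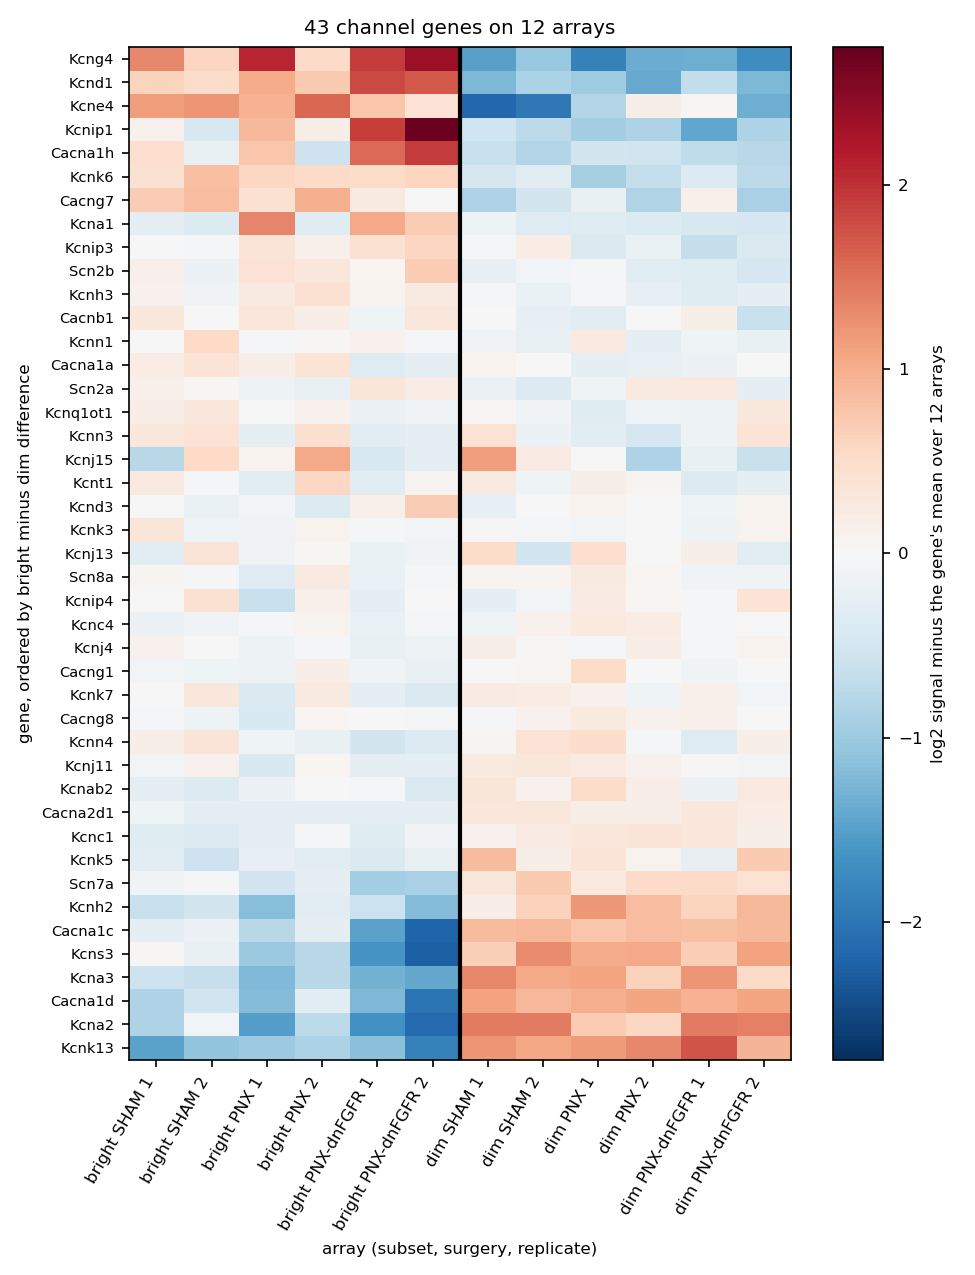
Each row is a channel gene and each column an array, with colour giving the log2 signal minus that gene's mean over the 12 arrays; bright arrays stand left of the black line and dim arrays right. Rows run from Kcng4, 2.93 log2 higher in bright, to Kcnk13 at -2.48, and the darkest bright cells of Kcnip1 are the PNX-dnFGFR arrays.

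Among voltage-gated potassium alpha subunits, Kcng4 and Kcnd1 read higher in bright. Kcng4, a modifier subunit that is silent alone and assembles with Kv2 channels, read 6.33 and 5.60 log2 in bright SHAM, 7.11 and 5.53 in bright PNX, and 6.94 and 7.38 in bright PNX-dnFGFR. Dim arrays read 3.16 to 3.97 log2, all below the filter, and no bright array came down to them. The difference was 2.93 ± 0.27 log2 as measured and 1.38 with low signals set to the filter value. Kcnd1, the A-type channel Kv4.1, read 6.37 to 7.66 log2 on bright arrays (median 6.73) and 4.47 to 5.18 on dim (median 4.76). Its 2.12 ± 0.13 log2 (4.34-fold, adjusted p = 2.02e-06) was the smallest p of the 43, and the subsets did not overlap.

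Smaller differences in the same direction were found for Kcna1 and Kcnh3. Kcna1 (Kv1.1) read 0.71 ± 0.24 log2 higher, with bright arrays at 4.01 to 5.74 and dim at 3.93 to 4.25 log2. Only bright PNX replicate 1 and PNX-dnFGFR replicate 1 lay above the filter, and with low signals at the filter value the difference was 0.16 log2. The Kcna1 call was also lost on leaving out any of 10 arrays, all but the 2 bright PNX arrays. Kcnh3, an ether-a-go-go family channel, was 0.35 ± 0.09 log2 higher (adjusted p = 0.00834). Its other probe sets read -0.30 and 0.16 log2, and the mean of its probe sets lost the call (adjusted p = 0.455).

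Lower in bright were the Kv1 channel Kcna2, the modifier Kcns3 and Kcnc1. The Kv1 channel Kcna3 and the hERG channel Kcnh2, above the filter on dim arrays only, also read lower and are given without a test. Kcna2 (Kv1.2) read 6.24 and 7.0 log2 in bright SHAM, 5.56 and 6.37 in bright PNX, and 5.41 and 4.96 in bright PNX-dnFGFR. On dim arrays it read 8.52 and 8.52 in SHAM, 7.78 and 7.65 in PNX, and 8.51 and 8.46 in PNX-dnFGFR. Every dim array exceeded every bright array, and the difference was -2.32 ± 0.17 log2 (4.98-fold, adjusted p = 6.68e-06). Its other probe sets gave -2.30 and -1.96 log2.

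Kcns3 (Kv9.3), which is silent alone and slows Kv2 channels, ran from 5.61 to 7.87 log2 on bright arrays (median 6.95) and from 8.49 to 9.15 on dim (median 8.88). It was lower in bright by -1.94 ± 0.16 log2 (3.83-fold, adjusted p = 9.93e-06), with no overlap. Kcna3 (Kv1.3), known for its role in T lymphocytes, ran from 3.97 to 4.82 log2 on bright arrays and from 5.92 to 6.71 on dim, a difference of -1.95 ± 0.15 as measured and -1.25 with low signals at the filter value. The lymphocyte list moved the same way: 2 of its 3 tested markers, Cd3d and Cd79a, were lower in bright, its mean level was 4.32 to 4.86 log2 on bright and 4.93 to 5.53 on dim arrays, and Cd3e and Ms4a1 were below the filter everywhere. Its part in the Kcna3 difference was not tested.

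Kcnh2, which carries the delayed rectifier of heart muscle, read 3.95 to 4.85 log2 on bright arrays and 5.33 to 6.33 on dim. Bright arrays were all below the filter and dim arrays all above it, at -1.46 ± 0.18 log2 as measured and -0.77 with low signals at the filter value. Kcnc1 (Kv3.1), a fast-firing channel of neurons, lay between 5.46 and 5.81 log2 on bright and 5.96 and 6.19 on dim arrays, at -0.48 ± 0.08 (adjusted p = 0.00113). Kcnc4 and Kcnd3 did not pass, at -0.14 (adjusted p = 0.173) and 0.06 log2 (adjusted p = 0.703).

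Of the 5 potassium auxiliary subunits and regulators, 3 were higher in bright and 1 lower (all genes: 28.5% and 19.3%). Kcnip1, one of the 3, entered through bright arrays only and had to be higher. Kcne4, a single-span subunit that damps several voltage-gated potassium channels, read 7.50 and 7.56 log2 in bright SHAM, 7.31 and 7.92 in bright PNX, and 7.12 and 6.74 in bright PNX-dnFGFR. Dim arrays read 4.18 and 4.38 in SHAM, 5.55 and 6.5 in PNX, and 6.40 and 5.00 in PNX-dnFGFR. All bright arrays stood above all dim arrays, at 2.02 ± 0.26 log2 (4.06-fold, adjusted p = 1.84e-04), while the dim arrays themselves spread widely after pneumonectomy.

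Kcnip1 (KChIP1), a calcium-binding partner of Kv4 channels such as that of Kcnd1, read 4.53 to 7.65 log2 on bright arrays and 3.53 to 4.40 on dim. The difference was 1.78 ± 0.19 log2 as measured and 0.85 with low signals at the filter value. Kcnip3 (also called DREAM, a calcium sensor that both binds Kv4 and represses transcription) was 0.50 ± 0.09 log2 higher (adjusted p = 0.00196), with overlap between bright arrays at 5.77 to 6.38 and dim at 5.13 to 6.0. Kcnab2, a cytoplasmic beta subunit, was -0.41 ± 0.11 log2 (adjusted p = 0.0148), a call lost with the mean of its probe sets (adjusted p = 0.0729). Kcnip4 did not pass (-0.11 log2, adjusted p = 0.573).

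Tandem-pore channels read in both directions between the subsets, with Kcnk13 and Kcnk5 above the filter on dim arrays only and given without a test. Kcnk13 (THIK-1), known from microglia and macrophages, read 3.87 to 4.86 log2 on bright arrays, all below the filter, and 6.65 to 7.46 on dim. The difference was -2.48 ± 0.17 log2 as measured and -1.86 with low signals at the filter value. Macrophage and dendritic cell markers averaged 6.06 to 6.44 log2 on bright and 5.99 to 7.23 on dim arrays, with Lyz2 and Ptprc lower in bright among 7 tested and no marker below the filter on all arrays, and their part was not tested.

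Kcnk6 (TWIK-2) went the other way, at 6.99 to 7.41 log2 on bright against 5.65 to 6.25 on dim arrays, 1.15 ± 0.11 higher (adjusted p = 2.66e-05) with no overlap. Kcnk5 (TASK-2), an acid-sensitive background channel, read -0.66 ± 0.18 log2 as measured and -0.26 with low signals at the filter value. Kcnk3 and Kcnk7 did not pass, at 0.04 and -0.16 log2. For Kcnk3 (TASK-1) the other probe sets read 0.57 and 1.31 log2, and they read -0.70 and -1.54 between PNX-dnFGFR and SHAM in bright cells, against -0.18 on the chosen one.

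Inward rectifiers and channels gated by calcium or sodium were nearly even between subsets. Kcnj11 (Kir6.2), the pore of ATP-sensitive potassium channels, lay at 5.52 to 6.05 log2 on bright and 5.86 to 6.23 on dim arrays, at -0.29 ± 0.10 (adjusted p = 0.0331). With the replicate block its adjusted p was 0.0661, and the call was lost on leaving out any of 9 of the 12 arrays (all but bright PNX replicate 2, dim PNX-dnFGFR replicate 2 and bright SHAM replicate 2). Kcnj4, Kcnj13 and Kcnj15 gave -0.14, -0.09 and 0.09 log2 and did not pass. Neither did Kcnn1 (0.21), Kcnn3 (0.11), Kcnn4 (-0.23) or Kcnt1 (0.09), with adjusted p between 0.171 and 0.677. Kcnn3 (SK3), the one of them with the highest mean, ran from 6.26 to 7.02 log2 on bright and 6.12 to 6.97 on dim arrays. Kcnq1ot1 was 8.02 to 8.48 and 7.86 to 8.49 log2 (0.12, adjusted p = 0.348).

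Among sodium channels, Scn7a was lower in bright and Scn2b higher. Scn7a (Nax), an atypical alpha subunit that senses extracellular sodium rather than voltage, read 9.64 and 9.70 log2 in bright SHAM, 9.21 and 9.46 in bright PNX, and 8.79 and 8.85 in bright PNX-dnFGFR. Dim arrays read 10.01 to 10.46, above every bright array. The difference was -0.92 ± 0.10 log2 (1.89-fold, adjusted p = 7.16e-05), and its other probe sets gave -0.97 and -1.13. Scn2b, a single-span beta subunit, was 0.48 ± 0.12 log2 higher (adjusted p = 0.0105), with bright at 5.61 to 6.46 and dim at 5.30 to 5.72, which overlap.

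Scn2a and Scn8a, the voltage-gated alpha subunits of axons, did not pass (0.12, adjusted p = 0.394, and -0.09, adjusted p = 0.511). For Scn2a another probe set, with a mean of 5.22 log2 like that chosen, read -2.54 log2, so the probe sets disagree. Signs also disagreed between probe sets above the filter for Cacnb1, Kcnh3, Kcnip3 and Kcnn4, making 5 of the 17 members with several such probe sets.

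L-type calcium alpha1 subunits were lower in bright. The T-type subunit Cacna1h, above the filter on bright arrays only, read higher and is given without a test. Cacna1c (Cav1.2), the L-type channel of heart and smooth muscle, read 7.18 and 7.28 log2 in bright SHAM, 6.69 and 7.20 in bright PNX, and 5.98 and 5.26 in bright PNX-dnFGFR. Dim arrays lay within 8.21 to 8.36 log2, a narrow band above all bright arrays. The difference was -1.70 ± 0.14 log2 (3.25-fold, adjusted p = 9.45e-06), and -1.72 on its other probe set. Cacna1d (Cav1.3), which opens at more negative voltages, ran from 4.79 to 6.52 on bright and 7.71 to 7.91 on dim arrays, at -2.05 ± 0.18 (4.13-fold, adjusted p = 1.83e-05).

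Cacna1h (Cav3.2), the low-voltage T-type channel, read 3.94 to 6.45 log2 on bright and 3.70 to 4.01 on dim arrays, 1.31 ± 0.22 higher as measured and 0.42 with low signals at the filter value. Cacna1a (Cav2.1) did not pass on its chosen probe set, at 0.18 log2 (adjusted p = 0.0891). Its other probe sets above the filter read 0.58 and 1.52 log2, so the size depends on the probe set. Cacna2d1, the alpha2delta subunit that binds gabapentin, lay at 8.70 to 8.85 log2 on bright and 9.13 to 9.29 on dim arrays, a small, non-overlapping difference of -0.48 ± 0.07 (adjusted p = 3.98e-04).

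Cacng7, which belongs to the gamma subunits that also escort AMPA receptors, read 1.05 ± 0.20 log2 higher in bright as measured and 0.13 with low signals at the filter value. Cacnb1, the cytoplasmic beta subunit of skeletal muscle channels, read 7.27 to 7.70 log2 on bright and 6.78 to 7.55 on dim arrays (0.32, adjusted p = 0.103). Cacng8 read 5.78 to 6.24 and 6.14 to 6.45 (-0.20, adjusted p = 0.126), and Cacng1 gave -0.15 (adjusted p = 0.25).

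**Figure D2:**
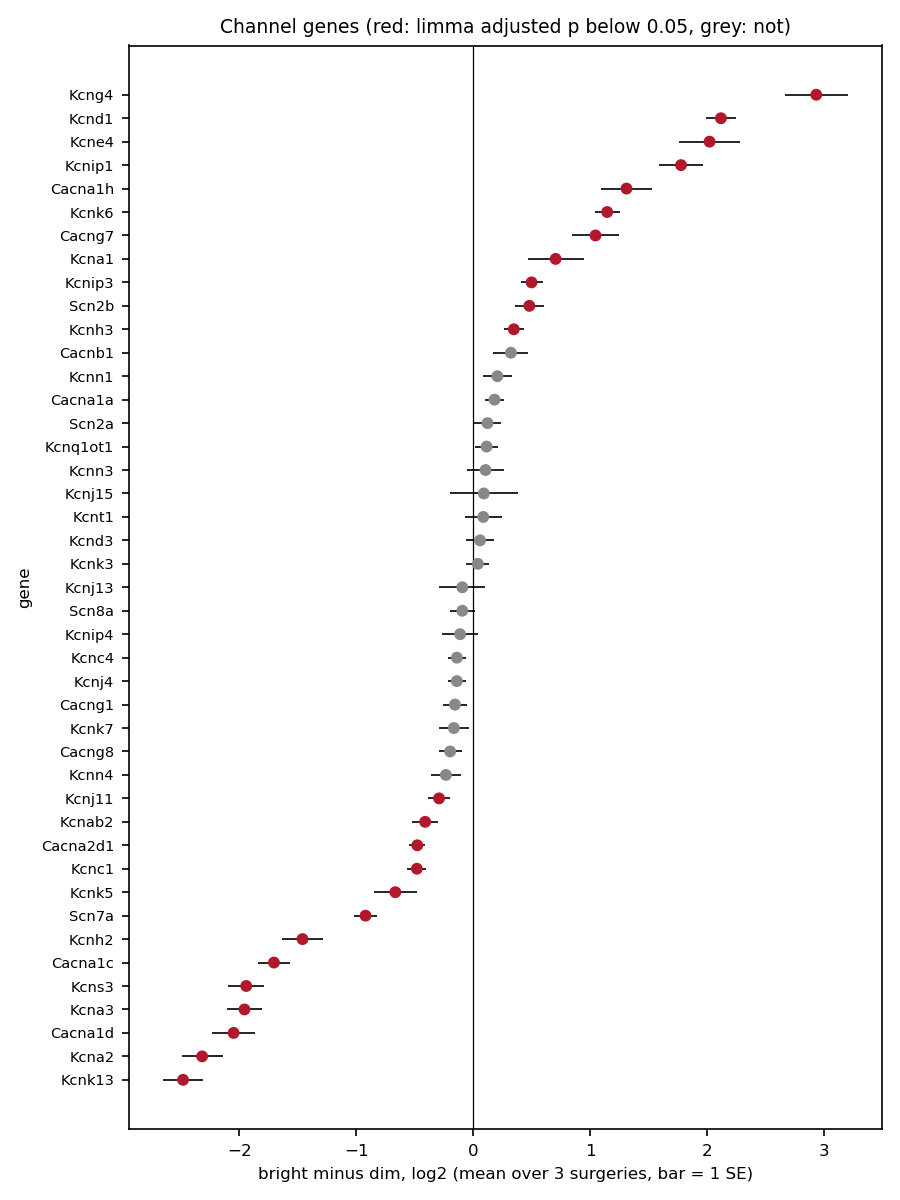
Bright minus dim difference of each channel gene in log2, averaged over SHAM, PNX and PNX-dnFGFR, with bars of 1 standard error and red points for limma adjusted p below 0.05. Red points run from 2.93 for Kcng4 to -2.48 for Kcnk13, and the grey points lie between -0.23 and 0.32. Kcng4 and Kcnk13 are among the 9 members above the filter in 1 subset only, whose red points had to differ and are no test.

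Taken by surgery, 5 members were higher and 9 lower in bright cells of SHAM (background 11.5% and 7.53%), 8 and 9 in PNX (11.4% and 7.07%), and 9 and 10 in PNX-dnFGFR (21% and 13.5%). Among the 34 members above the filter in both subsets, the counts were 3 and 7 in SHAM, 5 and 6 in PNX, and 5 and 7 in PNX-dnFGFR. Kcng4, Kcna3 and Kcnk13 differed in all 3 surgeries, but they entered through 1 subset and had to differ. The share of all genes passing in all 3 surgeries was not counted. Of the other members, Kcnd1 and Kcnk6 were higher in all 3, and Cacna1c, Cacna1d, Cacna2d1, Kcna2, Kcns3 and Scn7a lower. Of these calls, Cacna2d1 in PNX was lost whichever array was left out, and Scn7a in SHAM on leaving out 9 of the 12. Without bright SHAM replicate 1 the 14 calls in SHAM became 8, and without replicate 2 they became 9. Without bright PNX replicate 1 or dim PNX replicate 2 the 17 in PNX became 11. Passing in only some surgeries does not show a difference between them. The bright minus dim difference of Kcne4 was 3.25 ± 0.45 log2 after the sham operation (adjusted p = 0.00106) and 1.59 ± 0.45 after pneumonectomy (adjusted p = 0.0353, a call lost on leaving out 9 of the 12 arrays). That of Kcnip1 was 1.42 ± 0.33 after pneumonectomy, and with dnFGFR it was 3.43 ± 0.33.

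Markers of other cell types also differed between the subsets, with an untested part in the differences above. Pericyte and smooth muscle markers averaged 6.32 to 6.82 log2 on bright and 5.49 to 5.93 on dim arrays, with 3 of 6 tested (Pdgfrb, Acta2, Myh11) higher, Des lower, and Rgs5 below the filter everywhere. Nerve and glia markers averaged 4.30 to 4.92 and 4.04 to 4.36 log2; the 2 tested, Ngfr and Tubb3, were higher in bright, and S100b and Snap25 were below the filter everywhere. Mesothelial markers averaged 4.35 to 7.13 and 3.96 to 5.09 log2, with 2 of 4 tested higher and Msln below the filter everywhere. Endothelial markers averaged 4.92 to 5.68 and 4.76 to 5.62 log2, with 1 of 5 tested higher, 2 lower and Emcn below the filter everywhere. Epithelial markers averaged 6.31 to 7.76 and 6.38 to 7.52 log2, with 0 of 5 passing limma and Cdh1 and Foxj1 below the filter everywhere. Epithelial signal was nonetheless high for Sftpc, at 11.36 to 12.06 log2 on bright and 11.58 to 12.43 on dim arrays. Scgb1a1 varied widely, at 5.73 to 11.58 and 5.67 to 10.85 log2.

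Within bright cells, PNX-dnFGFR and SHAM differed at 8 channel genes: Kcnip1, Cacna1h and Kcnd1 rose, and Kcns3, Cacna1c, Kcna2, Scn7a and Cacna1a fell. That is 18.6% of the members against 5.2% of all genes tested, and no test of the members against other genes was made. Cacna1h is counted among the 8 although it passed the filter only through the PNX-dnFGFR arrays, where it is high. At unadjusted p below 0.05 there were 16 members. The median change was -0.18 log2 over the members and 0.02 over all genes. Arrays of PNX-dnFGFR differ from SHAM in both operation and transgene, which cannot be told apart in this comparison.

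**Figure D3:**
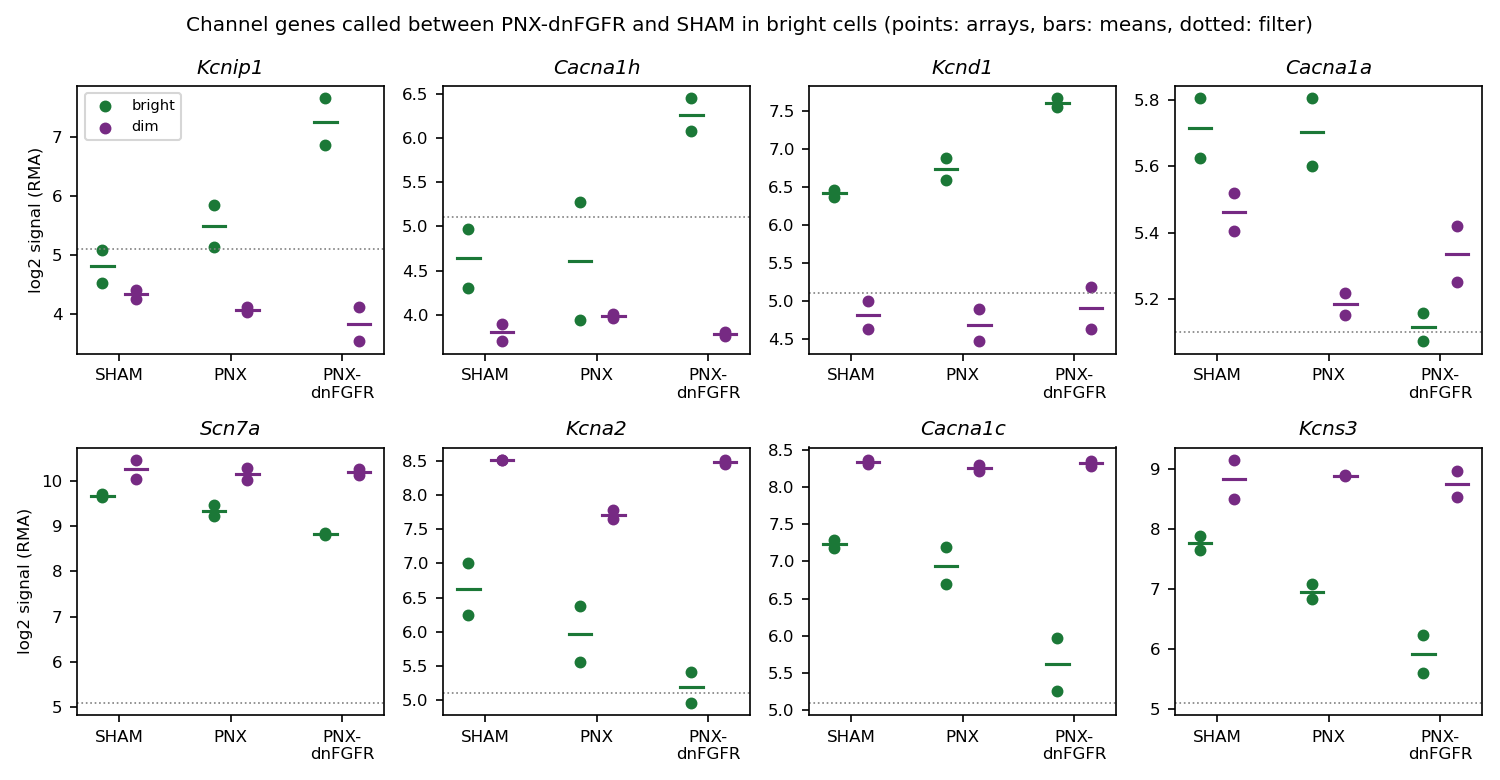
Log2 signal of the 8 genes by surgery, with points for arrays (green bright, purple dim), short bars for the mean of 2 arrays and a dotted line at the filter of 5.1. Bright PNX-dnFGFR points of Kcnip1 sit at 6.85 and 7.65, above both SHAM points at 5.08 and 4.53, while those of Cacna1c sit at 5.98 and 5.26, below 7.18 and 7.28.

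The Kv4 channel gene and its calcium-binding partner rose. Kcnd1 read 6.46 and 6.37 log2 in bright SHAM, 6.88 and 6.58 in PNX, and 7.66 and 7.54 in PNX-dnFGFR. Bright PNX-dnFGFR arrays lay above the others, at 1.19 ± 0.23 log2 over SHAM (2.28-fold, adjusted p = 0.0258), with a second probe set at 1.34. Kcnip1 read 5.08 and 4.53 in SHAM, 5.84 and 5.13 in PNX, and 6.85 and 7.65 in PNX-dnFGFR. Its rise over SHAM was 2.45 ± 0.33 log2 (5.46-fold, adjusted p = 0.0108), and the other probe sets gave 1.03, 1.35 and 2.35. Of the groups compared, only PNX-dnFGFR lay above the filter, where Kcnip1 is high, although the bright PNX arrays alone also met it. The p-value is to be read with that limit. Dim arrays of Kcnip1 stayed between 3.53 and 4.40.

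Cacna1h, the T-type calcium channel, read 4.97 and 4.31 log2 in bright SHAM, 5.27 and 3.94 in PNX, and 6.07 and 6.45 in PNX-dnFGFR, a rise of 1.62 ± 0.38 (3.07-fold). It lay above the filter on 3 arrays only, both PNX-dnFGFR arrays among them. It thus entered through the group where it is high, and its rise is a description with no test. Both SHAM arrays were below the filter, so Cacna1h and Kcnip1 were members only through PNX and PNX-dnFGFR arrays. With low signals at the filter value the rises were 1.16 log2 for Cacna1h and 2.15 for Kcnip1. Without a filter Cacna1h missed the threshold (adjusted p = 0.0516).

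Among the genes that fell, potassium channel subunits were Kcns3 and Kcna2. Kcns3 read 7.87 and 7.64 log2 in bright SHAM, 6.83 and 7.08 in PNX, and 6.23 and 5.61 in PNX-dnFGFR. It fell by 1.84 log2 (SE 0.27, 3.58-fold, adjusted p = 0.0118), with -1.07 on its other probe set, and the 3 surgeries did not overlap. Kcna2, with the bright values given above, fell by 1.44 log2 (SE 0.30, adjusted p = 0.0326), with -1.43 and -0.39 on its other probe sets. Fitting only the groups compared put Kcna2 at adjusted p = 0.0633.

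The sodium sensor and the L-type calcium channel also fell. Scn7a fell by 0.85 log2 (SE 0.17, 1.80-fold, adjusted p = 0.0301), with -0.96 and -1.07 on its other probe sets. Cacna1c read 7.18 and 7.28 in SHAM and 5.98 and 5.26 in PNX-dnFGFR, with -1.61 ± 0.24 log2 between them (3.06-fold, adjusted p = 0.0118) and -1.32 on its other probe set. For both genes neither PNX-dnFGFR array reached a SHAM array. Cacna1a read 5.63 and 5.81 log2 in SHAM, 5.60 and 5.81 in PNX, and 5.07 and 5.16 in PNX-dnFGFR (-0.60 ± 0.14, adjusted p = 0.0431). Other probe sets of Cacna1a above the filter read 0.13 and 0.10 log2, and the mean of its probe sets gave -0.07 (adjusted p = 0.785).

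These 8 calls rest on few arrays. Without bright PNX-dnFGFR replicate 2, or without bright SHAM replicate 2, 0 of the 43 passed limma's adjusted threshold. Without bright SHAM replicate 1, 2 passed, and without bright PNX-dnFGFR replicate 1, 3 passed. Leaving out either dim PNX array left 5, any other dim array left 6, and either bright PNX array gave 10.

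Averaged over both subsets, Kcns3 fell by 0.96 log2 (SE 0.19, adjusted p = 0.0435) and Cacna1c by 0.82 (adjusted p = 0.0451) between PNX-dnFGFR and SHAM, 2 of 43 against 2% of all genes. Both calls were lost without a filter and on leaving out any array other than a bright PNX array. Within dim cells 0 members passed (background 0.0181%; 2 at unadjusted p below 0.05 by limma). The smallest p in dim belonged to Kcnip3 (-0.60, adjusted p = 0.343), Kcne4 (1.42, adjusted p = 0.378) and Kcnj15 (-1.09, adjusted p = 0.532).

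Whether that change differs between subsets was tested directly, and 0 members passed (background 0.126%; 11 at unadjusted p below 0.05 by limma). Closest was Kcnip1, whose change was 2.95 ± 0.47 log2 larger in bright (adjusted p = 0.0654). It passed with a variance trend (0.0475) and with the stricter filter (0.0432). Under the stricter filter Kcnip1 enters only through the bright PNX-dnFGFR arrays, where it is high, so that pass is no test. Kcnip3 followed at 1.11 (adjusted p = 0.11) and Cacna1c at -1.59 (adjusted p = 0.11). A change confined to bright cells is therefore not shown for any member.

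On bright arrays, mesothelial markers varied alongside Kcng4, Kcna1 and Cacna1h, and less closely alongside Kcnip1; these members were picked after their values were seen. The list averaged 5.53 and 4.66 log2 in SHAM, 7.13 and 4.35 in PNX, and 5.90 and 6.55 in PNX-dnFGFR. Kcng4, at 6.33 and 5.60 in SHAM, 7.11 and 5.53 in PNX, and 6.94 and 7.38 in PNX-dnFGFR, was high on the 3 arrays with the highest markers and low on the 2 with the lowest. Kcna1 read 4.13 and 4.01 in SHAM, 5.74 and 4.07 in PNX, and 5.43 and 5.1 in PNX-dnFGFR, so its high arrays were those with high mesothelial markers. Cacna1h was likewise lowest on bright PNX replicate 2, where the markers were lowest, whereas Kcnip1 on that array, at 5.13, was above both SHAM arrays. Between PNX-dnFGFR and SHAM in bright cells 0 of 4 mesothelial markers passed limma, with a median change of 1.32 log2. Tubb3, a neuronal tubulin among the nerve markers, rose by 1.13 log2, but the nerve list did not rise together. Ngfr overlapped, at 7.298 and 6.121 log2 in bright SHAM and 6.764 and 7.392 in bright PNX-dnFGFR. Sox10, below the filter on these arrays, was lower, at 5.013 and 4.74 against 4.456 and 4.532. Endothelial markers had a median of -1.14 log2 in this comparison, opposite to the mesothelial list and in the direction of the 5 channel genes that fell. They did not all move together, and 0 of 5 passed limma. Pecam1 read 6.60 and 6.54 log2 in bright SHAM and 5.66 and 5.21 in bright PNX-dnFGFR, and Tek read 7.84 and 7.56 against 6.28 and 6.53. Kdr went up, from 5.435 and 6.817 in bright SHAM to 6.483 and 8.065 in bright PNX-dnFGFR. So did Cldn5, which lay below the filter on these arrays, from 4.473 and 4.095 to 4.788 and 4.38. The part of these cell types in the channel differences was not tested.

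**Figure D4:**
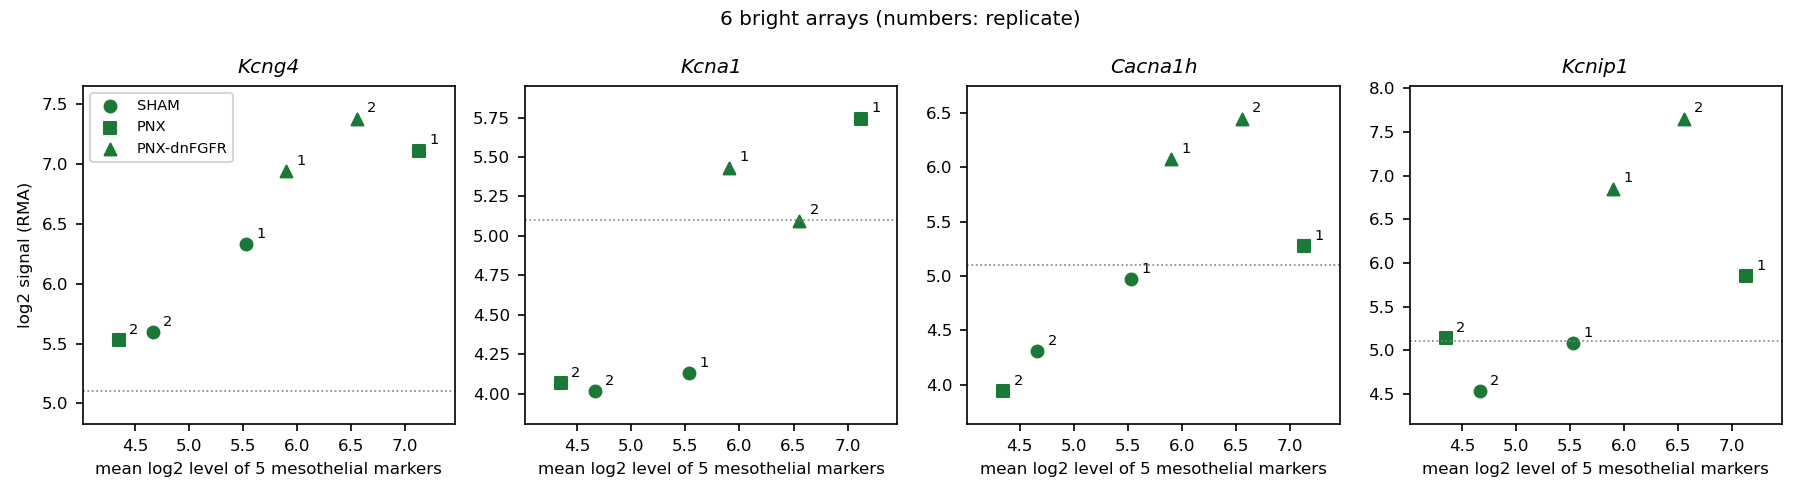
Log2 signal of Kcng4, Kcna1, Cacna1h and Kcnip1 (vertical) against the mean log2 level of 5 mesothelial markers (horizontal) on the 6 bright arrays, with shapes for surgery, numbers for replicate and a dotted line at the filter of 5.1. Bright PNX replicate 1 lies farthest right at 7.13 and holds the highest Kcna1, 5.74, while for Kcnip1 the PNX-dnFGFR arrays at 6.85 and 7.65 are highest.

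Pneumonectomy against the sham operation gave 0 calls among the members by limma: in bright cells (background 0.00903%; 1 at unadjusted p below 0.05), in dim cells (0.0452%; 2) and averaged over both (0.144%; 2). Bright cells had the smallest p for Kcns3 (-0.81, adjusted p = 0.518), Kcnh3 (0.32, adjusted p = 0.614) and Kcna2 (-0.66, adjusted p = 0.62). In dim cells they were Kcne4 (1.74 ± 0.45, adjusted p = 0.184), Kcna2 (-0.80, adjusted p = 0.339) and Kcnj15 (-1.12, adjusted p = 0.415). Dim Kcne4 read 4.18 and 4.38 log2 in SHAM and 5.55 and 6.5 in PNX, apart but not beyond the threshold. Averages over both subsets were -0.73 for Kcna2 (adjusted p = 0.156), 0.91 for Kcne4 (adjusted p = 0.207) and -0.38 for Kcnn3 (adjusted p = 0.361). The direct test of a subset difference also had 0 calls (background 0%; 4 at unadjusted p below 0.05 by limma), the nearest being Kcnip3, Kcne4 and Kcnj15 at 0.62, -1.66 and 1.80 log2 (adjusted p = 0.998 for each).

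PNX-dnFGFR against PNX, which differ by the transgene alone as labelled, likewise gave 0 calls by limma in bright cells (background 0.00903%; 10 at unadjusted p below 0.05), in dim cells (0%; 1) and averaged (0%; 5). In bright cells Cacna1c differed by -1.33 ± 0.24 log2 (adjusted p = 0.0766) and Kcnip1 by 1.76 ± 0.33 (adjusted p = 0.0885). Cacna1h read 1.65 ± 0.38 higher, a description with no test because it entered through the PNX-dnFGFR arrays, where it is high. With low signals at the filter value 4 members passed here, and with the stricter filter 1. Dim values were 0.77 for Kcna2 (adjusted p = 0.577), 0.50 for Kcnn3 (adjusted p = 0.696) and -0.25 for Kcnc4 (adjusted p = 0.697). Averages were -0.63 for Cacna1c (adjusted p = 0.206), 0.55 for Kcnd1 (adjusted p = 0.243) and 0.76 for Kcnip1 (adjusted p = 0.257). The subset difference of this comparison had 0 calls (background 0%; 9 at unadjusted p below 0.05 by limma), led by Kcnip1 at 2.01, Cacna1c at -1.39 and Cacna1a at -0.74 log2 (adjusted p = 0.471, 0.476 and 0.479). Comparisons between surgeries share arrays, so their values are given side by side only.

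Replicates of the same group differed most for Kcnj15, an inward rectifier, by 0.77 log2 on average, with arrays from 4.55 to 6.56. Kcng4 (0.68) and Kcne4 (0.60) followed, both with subset differences several times their replicate spread. Over all members the mean replicate difference was largest in bright PNX, at 0.45 log2, and 0.26 to 0.34 in the other groups.

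Other cation channels also had members called in either direction between the subsets. Of 33 listed (TRP, mechanosensitive, store-operated, hyperpolarization-activated and sulphonylurea receptor genes), 27 were on the array and 16 tested, with 2 higher and 3 lower in bright (all genes: 28.5% and 19.3%) and a median of -0.03 log2. Trpc1, a subunit of receptor-operated channels, was -1.14 ± 0.12 (adjusted p = 6.06e-05), Pkd1 (polycystin) -0.72 ± 0.08, and Stim1, the calcium sensor of store-operated entry, -0.72 ± 0.08. Piezo1, a stretch-gated channel, was 0.44 ± 0.09 log2 higher (adjusted p = 0.00354). In bright PNX-dnFGFR against SHAM 0 of the 16 passed limma.

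Pumps, exchangers and calcium-release genes numbered 37, with 29 on the array and 24 tested, of which 10 were higher and 7 lower in bright (all genes: 28.5% and 19.3%; median 0.18 log2). Fxyd6, a sodium pump regulator, was 2.92 ± 0.20 log2 higher, at 7.78 to 8.64 on bright and 4.69 to 6.71 on dim arrays. Atp2a2, the calcium pump of the endoplasmic reticulum, was 1.03 ± 0.10 higher and Calm3, a calmodulin gene, 0.98 ± 0.09, while Slc12a2, a sodium-potassium-chloride cotransporter, was -1.06 ± 0.11. In bright PNX-dnFGFR against SHAM 1 of the 24 passed: Slc8a1, the sodium-calcium exchanger, rose by 1.21 log2.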

How the data were processed

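Biotin-labelled cDNA of 12 samples was hybridized to Affymetrix mouse arrays. The deposited values are log2 signals, made by the authors with RMA (a method of background correction, quantile normalization and probe summary) per the submitters' processing notes; the sources used here do not give its version. Values spanned 1.50 to 13.05 log2. Probe sets numbered 45141, of which 104 were controls and left out; 28898 named 1 gene, 551 several and 15588 none, and 28689 probe sets took their symbol by Entrez identifier. Only probe sets naming 1 gene were used, and the brightest stood for its gene.

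In R 4.3.3, limma 3.58.1 fitted a mean for each of the 6 groups to all 11073 genes above the filter (residual df 6, median residual SD 0.196 log2), and 16 contrasts were adjusted by Benjamini-Hochberg at 0.05 over all of them. Errors after ± are standard errors. The number of arrays limits the precision. On simulated data with 200 genes changed by 1 log2, 94.5% were recovered for bright against dim. For PNX-dnFGFR against PNX it was 62.5% and for PNX-dnFGFR against SHAM 55%, both in bright cells. False calls numbered 12, 2 and 5, in that order. The real contrasts held 5293, 1 and 576 calls rather than 200 changed genes. These shares therefore need not apply to them, and do not rank the contrasts.

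Given in detail were the members past the threshold with non-overlapping arrays (up to 10 per direction), those past it between surgeries, otherwise the 3 with the smallest p, and the highest of each class. Alternatives were no filter, a stricter filter, renewed quantile normalization, the mean of probe sets, a variance trend, low signals at the filter value, only the groups compared, a replicate block, and leaving out each array. The members and all gene lists were chosen with earlier results of these data known. Promoters came from RefSeq, GRCm38.p6, and matched 33 members.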

Additional observations from a re-analysis of the deposited data

How the results depend on the processing

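Of 84 named results past the threshold, 48 stayed past it under every alternative run, 0 results reversed, and 228 of 1621 alternative values lost the call. These counts include bright against dim results of members above the filter in 1 subset only, which had to differ. Among the 48 are such results of Kcna3, Kcnk13, Kcnh2, Kcng4, Cacna1h and Kcnip1. The stricter filter (above 6.76 log2 on 2 or more arrays) tests only 15 members. It gave 5 higher and 7 lower for bright against dim, and 12 in PNX-dnFGFR. The share of all genes passing under that filter was not counted, so these counts are no result about channels. Kcng4, Kcnd1, Kcne4, Kcnk6 and Kcnip1 exceed it on bright arrays only, and Cacna1d and Kcnk13 on dim arrays only. These entered through the subset where they are high, so their calls are no test. The same filter gave 1 for PNX-dnFGFR against PNX in bright cells. PNX-dnFGFR against SHAM gave 4 averaged over subsets and 1, Kcnip1, for its subset difference. Low signals set to the filter value gave 4, 5 and 1 for those last 3, in that order. The average of PNX-dnFGFR against SHAM gave 0 without a filter and 1 with only the groups compared, its subset difference gave 1 with a variance trend, and bright against dim in PNX gave 11 with only the groups compared; the cause was not tested. The fit of only the groups compared does not apply to the average of bright against dim, which uses all 12 arrays. Leaving out each array gave, as lowest and highest counts, 8 to 16 for bright against dim in SHAM, 11 to 17 in PNX, 0 to 1 for PNX against SHAM in bright cells, 0 to 5 for PNX-dnFGFR against PNX in bright cells and 0 to 1 averaged, 0 to 10 for PNX-dnFGFR against SHAM in bright cells and 0 to 5 averaged, and 0 to 1 and 0 to 2 for the subset differences of PNX-dnFGFR against PNX and against SHAM. Same-numbered arrays deviated together at correlations of -0.09 to 0.35. The highest were in bright cells, 0.35 between PNX-dnFGFR and SHAM and 0.29 between PNX and SHAM. The main fit did not take the numbers to pair samples. A replicate block gave 11 higher and 12 lower for bright against dim, 8 for PNX-dnFGFR against SHAM in bright cells and 2 averaged. Signals near the filter limit Cacng7, Kcnk5, Kcna1, Cacna1h and Kcnip1, whose size depends on how low values are treated.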

Other observations

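Chloride and gap junction channels, listed apart from the cation channels above, had members called in either direction between the subsets. Of 23 listed, 22 were on the array and 17 tested, with 7 higher and 5 lower in arrays labelled bright (limma; 28.5% and 19.3% of all genes tested) and a median of -0.07 log2. Gja5 (connexin 40) was -3.66 ± 0.20 log2, at 5.86 to 7.66 on bright and 10.20 to 10.68 on dim arrays. Gja1 (connexin 43) was 2.99 ± 0.29 log2 higher, at 8.10 to 9.21 on bright and 4.32 to 6.94 on dim arrays, so these gap junction genes were high in opposite subsets without overlap. Panx1, a pannexin, was 1.17 ± 0.13 log2 higher. Lrrc8d, a subunit of volume-regulated anion channels, was -1.37 ± 0.11 log2 and also fell by 0.85 log2 between PNX-dnFGFR and SHAM in bright cells, the only one of the 17 tested to pass there.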
